A study of Mus musculus with 18 samples.

Results

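The genes described here are *Trp53*, which encodes the transcription factor p53, and 9 genes that it is known to activate: *Mdm2*, *Cdkn1a*, *Ccng1*, *Bbc3*, *Pmaip1*, *Bax*, *Phlda3*, *Trp53inp1* and *Zmat3*. They were found by matching these 10 symbols to Ensembl identifiers, 10 of the 54446 genes counted, and all 10 passed the filter on low counts. Nascent RNA was measured in mouse embryonic stem (mES) cells, which are the self-renewing cells of the early embryo kept in culture. The cells were wild type (WT) or carried the genotype *Tet2*-/- (*Tet2*-KO), which removes the TET2 dioxygenase. All cells were grown in DMEM with fetal bovine serum and LIF and with the inhibitors CHIR99021 and PD0325901, and were passaged on gelatin to remove feeder cells. All received 1 mM 5-ethynyl uridine (EU), a nucleoside that growing RNA takes up, for 10, 20 or 40 min, so that RNA made in that window could be tagged with biotin and captured. Each of the 6 groups had 3 replicates, 18 libraries in all. The replicates were dishes of 1 WT line and 1 *Tet2*-KO line, so p-values measure the spread between these dishes, and a difference between genotypes cannot be told apart from a difference between the lines.

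p53 is held at a low protein level because MDM2, itself a product of a p53 target gene, marks it for degradation. When DNA damage or other stress frees p53, it binds DNA as a tetramer and activates genes for cell cycle arrest, cell death, DNA repair and its own restraint. mES cells are known for abundant p53 and for a weak arrest at the G1 stage, and in them p53 can also lower pluripotency genes after damage. Most control of p53 acts on the protein, which these data did not measure: they give the RNA newly made from the genes.

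p53 binds a pair of 10-base half-sites, and the promoter sequences below are shown because they hold the best match to this p53 consensus near the starts of the genes. In the RefSeq promoter table (GRCm38.p6), 7 of the 10 genes had a window of 300 bases, from 250 bases before the start to 50 after it, with 10 windows between them. Both strands were searched for 2 adjacent half-sites, the p53 consensus of 20 bases. *Cdkn1a* and *Ccng1* matched it with 1 mismatch, as did 0.0884% of all 32817 windows. The other matches printed have more mismatches. *Bbc3* and *Cdkn1a* had more than 1 window, and for them the match of the best window is printed. In each line the 20-base site has 5 bases on either side, capitals mark the bases that match the p53 consensus, and the sequence reads in the direction of the gene.
Cdkn1a: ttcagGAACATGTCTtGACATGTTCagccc
Ccng1: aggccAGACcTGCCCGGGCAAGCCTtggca
Bax: tgacaAGcaTAtCCCAGGCAAGCTTtgaac
Trp53: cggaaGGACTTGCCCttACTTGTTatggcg
Bbc3: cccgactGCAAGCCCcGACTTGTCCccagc
Mdm2: gatagGAACTTGCCTAGcgAccaTTgcggt

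The *Cdkn1a* site lay at chr17:29090928-29090947, starting 51 bases before the RefSeq start of its window. The *Ccng1* site lay at chr11:40755462-40755481 on the minus strand, starting 195 bases before the RefSeq start of its window. Gene positions given further below are those of GENCODE, whose starts can differ from these. The sites of *Bax* (chr7:45467090-45467109, minus strand), *Trp53* (chr11:69580284-69580303) and *Bbc3* (chr7:16309486-16309505) had 3 mismatches, a level that 6.29% of all windows reached. *Mdm2* (chr10:117710925-117710944, minus strand) had 5, a level for which the share of all windows was not computed. At least 1 half-site without a mismatch, which can be part of the 20-base match, stood in 5 of the 10 windows, those of *Bax*, *Ccng1*, *Cdkn1a*, *Mdm2* and *Trp53*, against 8.36% of all windows. The window of *Phlda3* held no such half-site, and its best match, which is not printed, had 5 mismatches. *Pmaip1*, *Trp53inp1* and *Zmat3* were not in the table. A match of letters is a description and not a site shown to bind p53.

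Reads counted on genes ranged from 17931614 to 23069143 per library and ERCC spike-in reads from 44162 to 512186. Each level is given on 2 scales, as reads per 1000 ERCC reads and as a share of gene reads in reads per 1000000 gene reads (rpm). The ERCC RNA was added in proportion to total RNA, so the first scale is per amount of total RNA; whether fewer labelled cells or less RNA per cell lie behind a difference in these bulk samples cannot be told apart. The label was checked first on *Tet2*. In WT its share was 589, 599 and 598 rpm at 10 min, 683, 702 and 686 rpm at 20 min, and 741, 736 and 734 rpm at 40 min. The *Tet2*-KO-labelled libraries held 530, 540 and 535 rpm at 10 min, 585, 585 and 596 rpm at 20 min, and 637, 643 and 635 rpm at 40 min. The share of *Tet2* was thus lower at every time but not lost (average log2 fold change -0.20 ± 0.01 SE). Per ERCC read the libraries labelled *Tet2*-KO lay above WT at all 3 times, by 0.88, 0.25 and 0.48 on the log2 scale. The average for *Tet2* was 0.54 ± 0.05, beside a median of 0.70 over all genes tested, of which 80.5% were higher. Reads on *Tet2* were therefore present under both labels. The count is 1 number per gene, and neither the parts of the gene counted nor the deleted part is given, so the label could not be checked by it. Pluripotency markers summed to 3119 to 3304 rpm in WT and 2241 to 2371 rpm in libraries labelled *Tet2*-KO, with 7 of the 9 tested markers lower in share and 2 higher (32% and 24.6% of all genes tested), while per ERCC read 1 was lower and 6 were higher (4.15% and 80.5%). *Sox2* was listed at 0 in all 18 libraries. The overlap mode of the count is not given, and whether this 0 reflects the RNA or the counting was not tested. Markers of feeder fibroblasts summed to 8.06 to 28.8 rpm in WT and 7.86 to 17.7 rpm in the other genotype, those of primitive endoderm to 12.3 to 18.2 and 12.8 to 16.3 rpm, and those of two-cell-like cells to 16.7 to 29.6 and 2.22 to 5.16 rpm. The part of these markers in the results below was not tested.

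Per ERCC read, all 10 genes were higher in the libraries labelled *Tet2*-KO, by 1.38-fold for *Cdkn1a* to 2.11-fold for *Trp53* on the average of the 3 EU times. As a share of gene reads they parted: *Trp53* and *Mdm2* were higher, *Cdkn1a*, *Zmat3*, *Trp53inp1*, *Bbc3* and *Bax* were lower, and *Ccng1*, *Phlda3* and *Pmaip1* did not pass the test. The counts of 10 higher and 0 lower per ERCC read stood beside 80.5% and 4.15% of the 19910 genes tested, and the median log2 fold change was 0.61 over the 10 genes and 0.70 over all genes. The share was higher for 2 of 10 (24.6% of all genes tested) and lower for 5 of 10 (32% of all genes), with medians of -0.12 over the 10 genes and -0.04 over all. Calls used edgeR's quasi-likelihood test fitted across all genes, and p-values were adjusted over all genes tested by the Benjamini-Hochberg method with a threshold of 0.05.

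At single EU times, 10 of the 10 genes were higher per ERCC read at 10 min (79% of all genes), 9 at 20 min (53.7%) and 10 at 40 min (68.2%), and none was lower (2.1%, 4.86% and 2.84% of all genes at the 3 times). *Bbc3* at 20 min was the exception (log2 fold change 0.24 ± 0.13, edgeR quasi-likelihood test, Benjamini-Hochberg adjusted p = 0.0966). In each of the 10 genes the 3 libraries labelled *Tet2*-KO lay above the 3 WT libraries at every EU time, as they did for 51.6% of all genes tested, while 1.56% lay below at every time. The share of gene reads was higher for 2 and lower for 5 genes at 10 min (17.9% and 27.1% of all genes), higher for 3 and lower for 4 at 20 min (17.6% and 20.7%), and higher for 1 and lower for 6 at 40 min (18.9% and 19.6%). At 20 min the lower count fell from 4 to 2 with TMM normalization and with DESeq2's own size factors, and also when WT replicate 1 or 3 or any of the 3 replicates labelled *Tet2*-KO at that time was left out. Without overlap between genotypes at all 3 EU times, the share of *Trp53* was above WT (11.8% of all genes tested) and the shares of *Cdkn1a*, *Trp53inp1* and *Zmat3* were below it (13.9%).

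**Figure D1:**
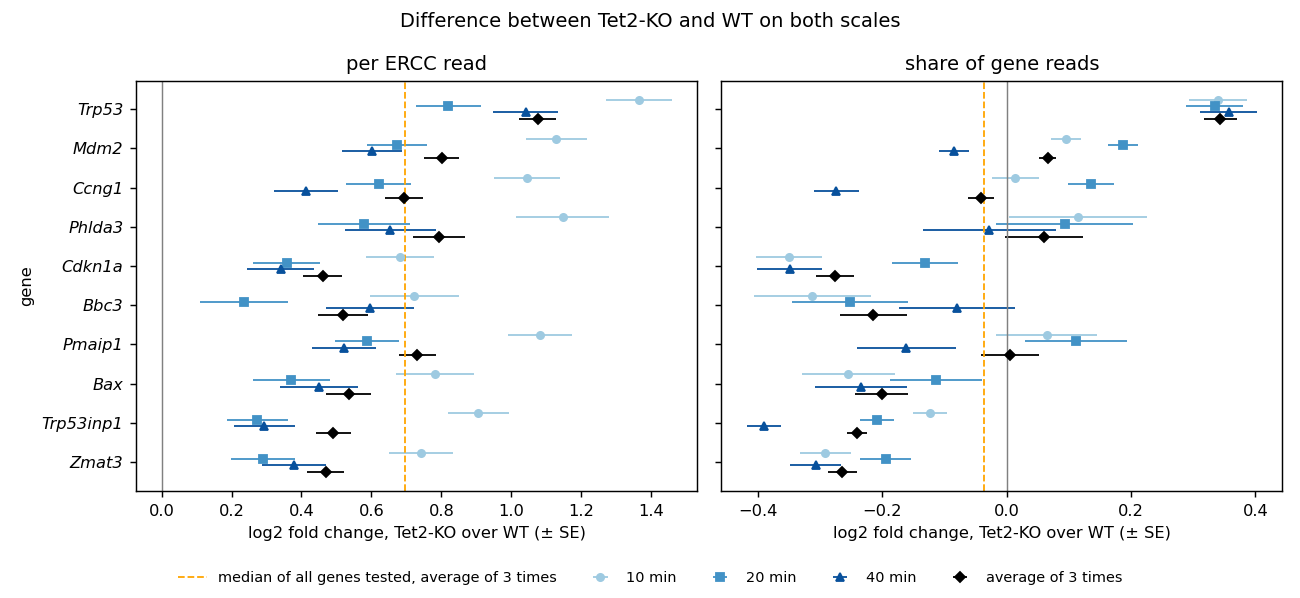
Log2 fold change of each gene, *Tet2*-KO over WT, with its standard error at each EU time and on the average of the 3 times (diamonds), per ERCC read on the left and as a share of gene reads on the right. All diamonds lie to the right of 0 on the left, from 0.46 for *Cdkn1a* to 1.08 for *Trp53*, while on the right they run from -0.28 for *Cdkn1a* to 0.34 for *Trp53*; the dashed line is the median of all genes on the average.

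The *Trp53* gene lies on chromosome 11 (mm10, 69580359 to 69591873, plus strand). Its share in WT was 90.0, 82.6 and 74.0 rpm at 10 min, 98.7, 98.8 and 98.9 rpm at 20 min, and 104, 107 and 107 rpm at 40 min. In libraries with the *Tet2*-KO label it was 102, 110 and 99.9 rpm at 10 min, 123, 123 and 127 rpm at 20 min, and 137, 138 and 133 rpm at 40 min. Every library labelled *Tet2*-KO was above every WT library of the same EU time, and the 3 differences were alike, at 0.34, 0.33 and 0.36 on the log2 scale. The average share difference was 0.34 ± 0.03 (edgeR quasi-likelihood test, Benjamini-Hochberg adjusted p = 4.74e-13), higher than that of 83.4% of all genes tested. Per 1000 ERCC reads, WT held 3.85 ± 0.593 (SD, n = 3), 14.6 ± 0.874 and 26.2 ± 1.31 reads at 10, 20 and 40 min. The libraries labelled *Tet2*-KO held 9.92 ± 0.138, 25.7 ± 1.79 and 54.0 ± 4.19 reads, an average difference of 1.08 ± 0.05 on the log2 scale, the largest of the 10 genes. The processed pseudogene *Trp53-ps* took 0 to 4 reads per library, against 1622 to 2790 for *Trp53* itself.

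MDM2 is the ubiquitin ligase that marks p53 for degradation, and its gene lies on chromosome 10 (117688875 to 117710758, minus strand). The *Mdm2* share in WT was 344, 339 and 347 rpm at 10 min, 374, 368 and 376 rpm at 20 min, and 422, 419 and 424 rpm at 40 min. In the libraries labelled *Tet2*-KO it was 356, 368 and 377 rpm at 10 min, 412, 430 and 431 rpm at 20 min, and 399, 397 and 397 rpm at 40 min. The genotypes did not overlap at any EU time, but the order turned: the share was above WT at 10 and 20 min and below it at 40 min. By the quasi-likelihood test of edgeR, with Benjamini-Hochberg adjustment, the log2 differences were 0.10 ± 0.02 (adjusted p = 0.00139), 0.19 ± 0.02 (adjusted p = 8.75e-08) and -0.08 ± 0.02 (adjusted p = 0.00464), and the average was 0.07 ± 0.01 (adjusted p = 1.21e-04). Per ERCC read *Mdm2* was higher at all 3 times, by 2.19-, 1.60- and 1.52-fold.

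*Ccng1* encodes cyclin G1, a p53 target that brings a phosphatase to MDM2, and lies on chromosome 11 (40748552 to 40755311, minus strand). Its share in WT was 86.7, 85.0 and 84.9 rpm at 10 min, 93.5, 93.7 and 92.4 rpm at 20 min, and 133, 129 and 132 rpm at 40 min. The *Tet2*-KO-labelled libraries held 88.6, 83.9 and 86.3 rpm at 10 min, 101, 105 and 101 rpm at 20 min, and 113, 108 and 105 rpm at 40 min. The genotypes overlapped at 10 min, stood apart with *Tet2*-KO above at 20 min, and stood apart with *Tet2*-KO below at 40 min. The log2 differences at 20 and 40 min were 0.14 ± 0.04 (adjusted p = 0.00408) and -0.27 ± 0.04 (adjusted p = 1.57e-07) by the quasi-likelihood test of edgeR, Benjamini-Hochberg adjusted. On the average of the 3 times the difference was -0.04 with a 95% interval of -0.084 to 0.00043, and it passed the threshold when replicate 1 labelled *Tet2*-KO at 40 min was left out (-0.05, adjusted p = 0.0442 by the same edgeR test).

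*Phlda3*, on chromosome 1, encodes a small membrane-binding protein that competes with the kinase AKT. It was among the least abundant of the 10 genes, with 261 to 397 reads per library in WT and 276 to 352 in the libraries labelled *Tet2*-KO. Its share overlapped between genotypes at all 3 EU times, with an average log2 difference of 0.06 and a 95% interval of -0.06 to 0.18. Per ERCC read it was 1.73-fold higher in the libraries labelled *Tet2*-KO.

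**Figure D2:**
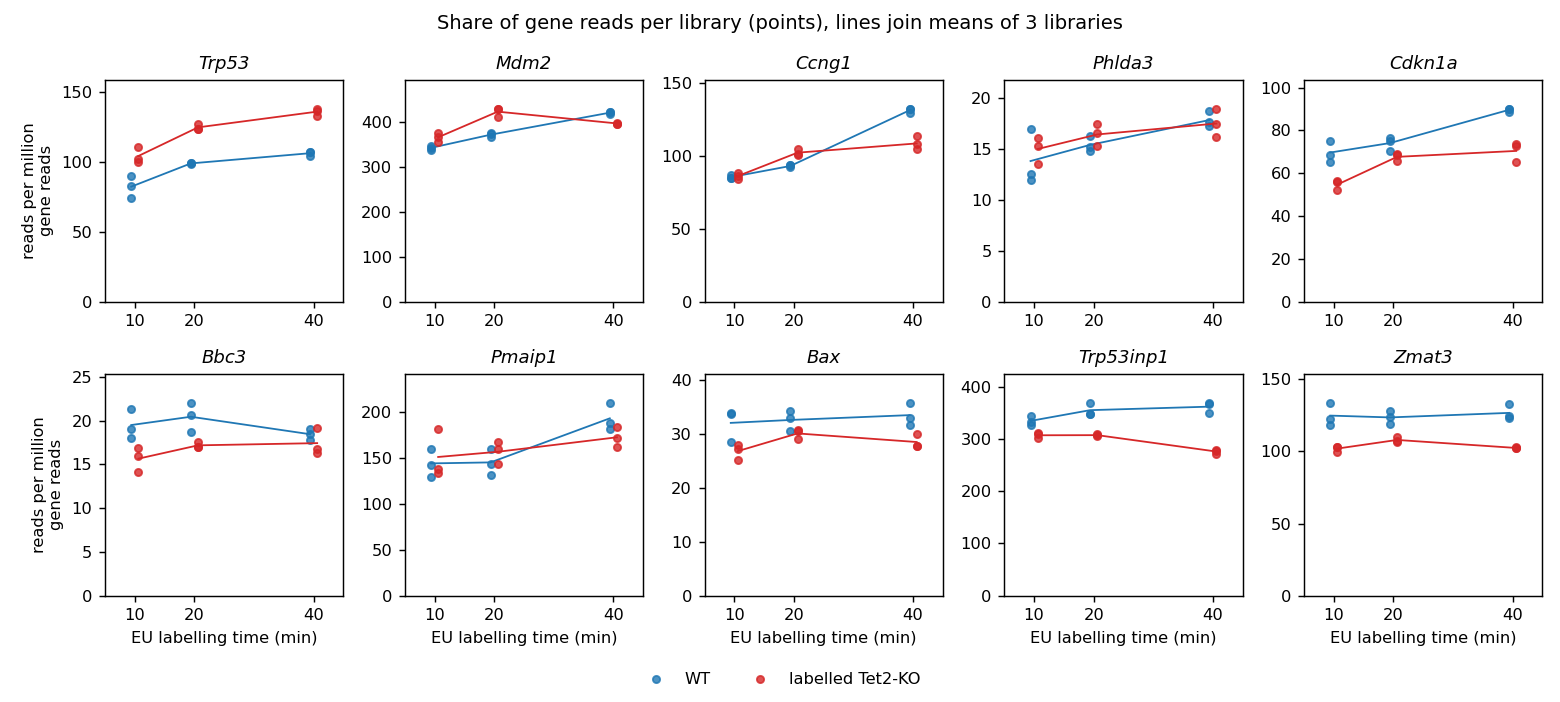
Share of gene reads of each gene in rpm against EU labelling time, 1 point per library (blue, WT, and red, labelled *Tet2*-KO, 3 each per time), with lines through the means. The red points of *Trp53* are above the blue ones at each time, and those of *Cdkn1a*, *Trp53inp1* and *Zmat3* are below them. The lines of *Mdm2*, *Ccng1*, *Pmaip1* and *Phlda3* cross between 20 and 40 min, while the points of *Pmaip1* and *Phlda3* overlap at each time.

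*Cdkn1a* encodes p21, the inhibitor of cyclin-dependent kinases through which p53 arrests the cell cycle, and lies on chromosome 17 (29090976 to 29100727, plus strand). Its share in WT was 75.2, 65.3 and 68.4 rpm at 10 min, 75.2, 70.4 and 76.5 rpm at 20 min, and 90.1, 88.6 and 90.0 rpm at 40 min. In libraries with the *Tet2*-KO label it was 52.1, 56.3 and 55.7 rpm at 10 min, 65.5, 69.0 and 68.4 rpm at 20 min, and 72.6, 65.1 and 73.4 rpm at 40 min. The libraries labelled *Tet2*-KO were below WT at every time, narrowly so at 20 min. The average log2 difference was -0.28 ± 0.03 (edgeR quasi-likelihood test, Benjamini-Hochberg adjusted p = 1.73e-09), the lowest of the 10 genes. Per ERCC read the gene was higher by 0.46 ± 0.06 on the log2 scale, the smallest rise of the 10. On the opposite strand *AC167363.2* shares 273 exon bases with it and took 0 to 12 reads per library.

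*Trp53inp1*, on chromosome 4 (11156431 to 11174379, plus strand), encodes a stress protein that acts with p53 and in autophagy. Its share in WT was 327, 345 and 333 rpm at 10 min, 349, 370 and 348 rpm at 20 min, and 350, 367 and 369 rpm at 40 min. In the libraries labelled *Tet2*-KO it was 302, 309 and 311 rpm at 10 min, 311, 305 and 307 rpm at 20 min, and 280, 277 and 272 rpm at 40 min. The genotypes never overlapped and the gap widened with EU time, with log2 differences of -0.12 ± 0.03, -0.21 ± 0.03 and -0.39 ± 0.03. Its average difference was -0.24 ± 0.02 (edgeR quasi-likelihood test, Benjamini-Hochberg adjusted p = 5.70e-15).

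*Zmat3*, on chromosome 3 (32334792 to 32366014, minus strand), encodes a zinc finger protein that binds RNA and takes part in splicing. Its share in WT was 134, 118 and 123 rpm at 10 min, 119, 128 and 124 rpm at 20 min, and 124, 123 and 133 rpm at 40 min. The *Tet2*-KO-labelled libraries held 99.8, 103 and 103 rpm at 10 min, 107, 110 and 107 rpm at 20 min, and 102, 103 and 102 rpm at 40 min. All 9 libraries labelled *Tet2*-KO were below all 9 WT libraries, with an average log2 difference of -0.26 ± 0.02 (edgeR quasi-likelihood test, Benjamini-Hochberg adjusted p = 1.53e-11).

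The genes of mitochondrial cell death were lower in share or did not pass the test. BAX opens the outer mitochondrial membrane, and PUMA (*Bbc3*) and NOXA (*Pmaip1*) are BH3-only proteins that free it to do so. The share of *Bax* was 28.6 to 35.8 rpm in WT and 25.3 to 30.8 rpm in the libraries labelled *Tet2*-KO, apart at 10 and 40 min and overlapping at 20 min, with an average log2 difference of -0.20 ± 0.04. The share of *Bbc3* was 17.8 to 22.04 rpm in WT and 14.2 to 19.2 rpm in the libraries labelled *Tet2*-KO, apart at 10 and 20 min and overlapping at 40 min, with an average difference of -0.21 ± 0.05. The adjusted p-values were 1.56e-04 for *Bax* and 9.69e-04 for *Bbc3* by the quasi-likelihood test of edgeR, Benjamini-Hochberg adjusted. *Pmaip1*, on chromosome 18, ranged from 129 to 210 rpm in WT and from 133 to 184 rpm in the libraries labelled *Tet2*-KO and overlapped at every time. Its average log2 difference was 0.00 with a 95% interval of -0.09 to 0.10, and its replicates spread more than those of the other abundant genes, with an SD of 26.6 rpm at 10 min under the *Tet2*-KO label. *Gm45808*, on the same strand as *Bax*, shares 192 of its 1576 exon bases and took 27 to 67 reads per library, so some *Bax* reads may have been counted elsewhere.

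Levels of different genes were compared per kb of exon, as rpm divided by the exon length in kb (rpm per kb). In WT the median over the 9 libraries was 73.6 rpm per kb for *Mdm2*, 58.5 for *Pmaip1* and 53.9 for *Trp53inp1*, all above 96.3% or more of protein-coding genes tested. A middle group followed with *Ccng1* at 26.6, *Trp53* at 24.4, *Cdkn1a* at 21.2 and *Bax* at 20.99, and *Zmat3* at 10.9, *Phlda3* at 10.5 and *Bbc3* at 8.99 came last. Neighbours in this order overlapped over the 9 WT libraries except at 2 steps, between *Trp53inp1* (lowest 50.5) and *Ccng1* (highest 37.7), and between *Bax* (lowest 18.1) and *Zmat3* (highest 11.7). In the libraries labelled *Tet2*-KO, *Trp53* (30.5) stood above *Ccng1* (28.8) and the rest kept this order, except that *Phlda3* (10.4) stood above *Zmat3* (9.004). With the whole gene span as the length, the median over the 10 genes fell from 22.8 to 8.15 rpm per kb and the order in WT changed: *Pmaip1* (22.7) and *Trp53inp1* (19.4) stood above *Mdm2* (17.1), and *Phlda3* (5.396) stood above *Zmat3* (3.97). Which parts of a gene were counted is not given in the sources used here. Over 15158 protein-coding genes, the log2 read level rose by 0.89 per log2 of exon length and by 0.17 per log2 of gene span in one fit.

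Labelling for longer raised all 10 genes per ERCC read in both genotypes (96.7% of all genes tested rose in WT and 94.7% in the libraries labelled *Tet2*-KO, and 0.01% and 0.00502% fell): from 10 to 40 min the level rose 5.02- to 8.12-fold in WT and 3.74- to 5.44-fold in the libraries labelled *Tet2*-KO. The slope of a line on EU time, with an intercept, was steeper in the libraries labelled *Tet2*-KO for all 10 genes, with ratios from 1.11 (*Trp53inp1*) to 2.02 (*Trp53*) and a median of 1.32. For *Trp53* the slope was 0.723 ± 0.0515 (SE, 9 libraries) reads per 1000 ERCC reads per min in WT and 1.46 ± 0.0669 in the libraries labelled *Tet2*-KO. For *Trp53inp1* the slopes were 2.37 ± 0.199 and 2.63 ± 0.179, a difference within these errors. With a line through the origin they were 2.28 ± 0.0895 and 2.83 ± 0.0878, a difference beyond the errors. *Mdm2* had the steepest slopes, 2.87 ± 0.149 and 4.02 ± 0.27. Slopes were not tested and were not computed for all genes. At 40 min the median log2 difference per ERCC read was 0.49 over the 10 genes and 0.67 over all genes. Of the 10 genes, 1 lay above that median of all genes. The medians were 0.975 and 0.959 at 10 min, and 0.475 and 0.451 at 20 min. At each of these times 5 of the 10 genes lay above the median of all genes, and 4 did on the average of the 3 times. In WT the mean rise per min from 10 to 20 min exceeded that from 20 to 40 min in all 10 genes (for *Trp53* 1.07 against 0.584, for *Ccng1* 0.973 against 0.937). In the libraries labelled *Tet2*-KO it did so in 9 of 10 (for *Trp53* 1.58 against 1.41). *Pmaip1* was the exception there, with 1.79 against 1.81. These rises were not tested and were not computed gene by gene for all genes. Over all genes together, WT libraries held 42.8 to 50.8 gene reads per ERCC read at 10 min, 140 to 157 at 20 min and 239 to 259 at 40 min. Those labelled *Tet2*-KO held 89.6 to 101, 192 to 215 and 366 to 429.

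**Figure D3:**
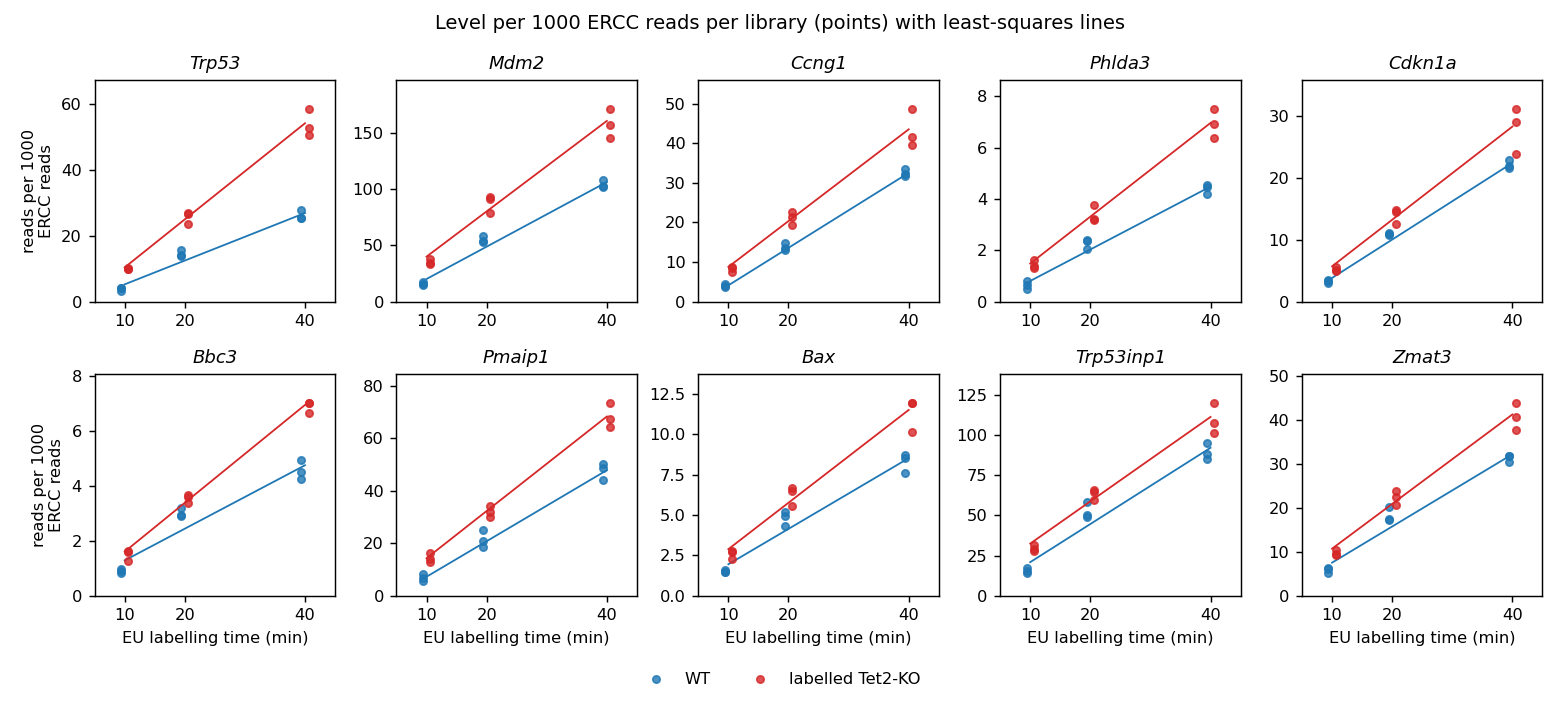
Level of each gene in reads per 1000 ERCC reads against EU labelling time, 1 point per library (blue, WT, and red, labelled *Tet2*-KO), with least-squares lines through the 9 libraries of each genotype. The red points are above the blue ones at each time in all 10 panels, and the lines part most for *Trp53*, with a slope ratio of 2.02.

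As a share of gene reads, 7 of the 10 genes rose from 10 to 40 min in WT (16.1% of all genes tested) and none fell (29.5%). The rises ran from 0.11 ± 0.03 for *Trp53inp1* to 0.62 ± 0.04 for *Ccng1* on the log2 scale, with a median of 0.33 over the 10 genes and -0.14 over all genes. In the libraries labelled *Tet2*-KO, 4 rose (16.5% of all genes) and 1 fell (20%): *Trp53*, *Cdkn1a*, *Ccng1* and *Mdm2* rose by 0.38, 0.36, 0.33 and 0.12, and *Trp53inp1* fell by 0.15. *Bax*, *Bbc3* and *Zmat3* did not pass the test in either genotype. Over the same time the shares of 6 of the 7 tested feeder fibroblast markers fell in WT, and 1 of 7 fell in the libraries labelled *Tet2*-KO. The difference between genotypes in this change, by the contrast described below, was higher for 5 of the 7 (5.89% of all genes) and lower for 0 (3.36%). The part of these markers in the changes of the 10 genes was not tested. Summed over the 10 genes, the share was 1249 ± 21.5 rpm (SD, n = 3), 1331 ± 21.9 and 1500.5 ± 29.1 rpm in WT at 10, 20 and 40 min, and 1230 ± 37.7, 1354 ± 10.1 and 1327 ± 15.3 rpm in the libraries labelled *Tet2*-KO.

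The change with EU time was compared between genotypes by an interaction contrast in the same fit, the difference at 40 min minus that at 10 min. In share it was lower for 3 of the 10 genes (3.36% of all genes tested) and higher for none (5.89%). These were *Ccng1* (-0.29 ± 0.05, adjusted p = 3.39e-04), *Trp53inp1* (-0.27 ± 0.04, adjusted p = 1.59e-05) and *Mdm2* (-0.18 ± 0.03, adjusted p = 4.80e-04) by the quasi-likelihood test of edgeR, Benjamini-Hochberg adjusted. For *Trp53* and *Cdkn1a* the contrast was 0.02 ± 0.07 and 0.00 ± 0.07, with 95% intervals of -0.11 to 0.15 and -0.14 to 0.15. Per ERCC read it was lower for 6 genes (19.3% of all genes), *Ccng1*, *Trp53inp1*, *Pmaip1*, *Mdm2*, *Phlda3* and *Zmat3*, and higher for none (0.552%), with a median over the 10 genes of -0.43 against -0.29 over all genes. The calls of *Phlda3* and *Zmat3* per ERCC read rested on single libraries and on the number of genes tested, as given with the processing alternatives.

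**Figure D4:**
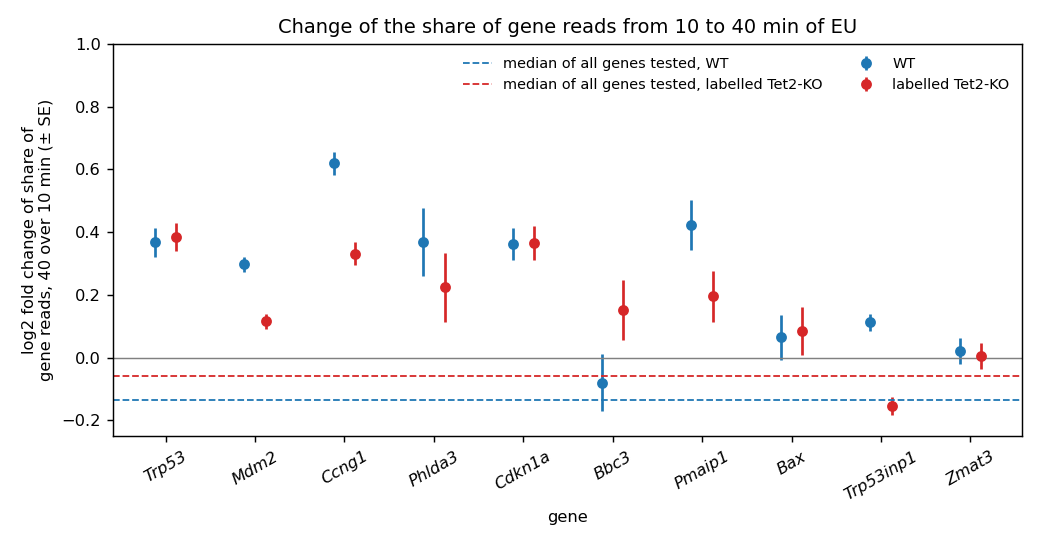
Log2 fold change of the share of gene reads from 10 to 40 min of EU, with its standard error, for each gene in WT (blue) and in the libraries labelled *Tet2*-KO (red); dashed lines are the medians of all genes tested, -0.14 and -0.06. The genotypes differ most at *Ccng1* (0.62 and 0.33) and *Trp53inp1* (0.11 and -0.15), and nearly coincide at *Trp53* and *Cdkn1a*.

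The wider pathway was described by 89 genes in 6 lists that hold the 10 genes as well, and 88 of them were tested (*Casp1* had at most 2 reads). Per ERCC read 80 of the 88 were higher and 1 was lower, beside 80.5% and 4.15% of all genes tested. In share 22 were higher and 37 lower, beside 24.6% and 32% of all genes, with a median of -0.05 against -0.04 over all genes. The counts by list that follow are in share and stand beside the same 24.6% higher and 32% lower. Among p53 and its regulators, kinases, ligases and related factors, 10 of 18 were higher in share and 5 lower, with a median of 0.10. Among cell cycle targets 1 of 12 was higher and 7 lower (median -0.23), and among cell death targets 1 of 14 was higher and 10 lower (median -0.21). Signalling and metabolism targets had 4 of 23 higher and 7 lower (median -0.05), DNA repair targets 3 of 9 higher and 4 lower (median -0.03). The genes that p21 represses through the DREAM complex had 3 of 12 higher and 4 lower (median -0.01). The lists were not tested as sets.

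Outside the 10 genes, the highest share differences in these lists were those of *Rrm2b*, *Cdkn2a*, *Hipk2*, *Gls2*, *Aen* and *Fancc*. *Rrm2b*, the p53-inducible subunit of ribonucleotide reductase, ranged from 11.1 to 17.1 rpm (median 14.6) in WT and from 32.2 to 46.7 rpm (median 35.5) in the libraries labelled *Tet2*-KO, without overlap, and rose by 1.42 ± 0.05 on the log2 scale. *Cdkn2a*, whose product ARF holds MDM2 back from p53 and whose other product p16 inhibits cyclin-dependent kinases, rose by 0.58 ± 0.07. Its share overlapped at 10 min, with 17.2 to 22.5 rpm in WT and 21.7 to 28.5 rpm in the libraries labelled *Tet2*-KO. The genotypes stood apart at 20 and 40 min. *Hipk2*, a kinase of p53, rose by 0.56 ± 0.02, from a median of 100.0 rpm to 142 rpm. *Gls2* (a mitochondrial glutaminase), *Aen* (an exonuclease of apoptosis) and *Fancc* (a Fanconi anaemia repair protein) rose by 0.45, 0.42 and 0.34. All 6 were also higher per ERCC read, by 1.07 to 2.16 on the log2 scale.

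The lowest were *Sfn*, *Ercc5*, *Btg2*, *Bid*, *Btg1* and *Xpc*. *Sfn*, which encodes the 14-3-3 sigma protein of cell cycle arrest, fell by 1.68 ± 0.07 in share, from a median of 27.9 rpm to 8.22 rpm, and fell by 0.95 per ERCC read, the only gene of the 88 that was lower on both scales. The repair genes *Ercc5* and *Xpc* fell by 0.79 and 0.67 in share, the antiproliferative genes *Btg2* and *Btg1* by 0.72 and 0.69, and *Bid*, a BH3-only gene, by 0.71. Per ERCC read these 5 had differences between -0.05 and 0.06 and none passed the test. All 12 share differences passed the edgeR test after Benjamini-Hochberg adjustment, which was the condition for naming them.

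**Figure D5:**
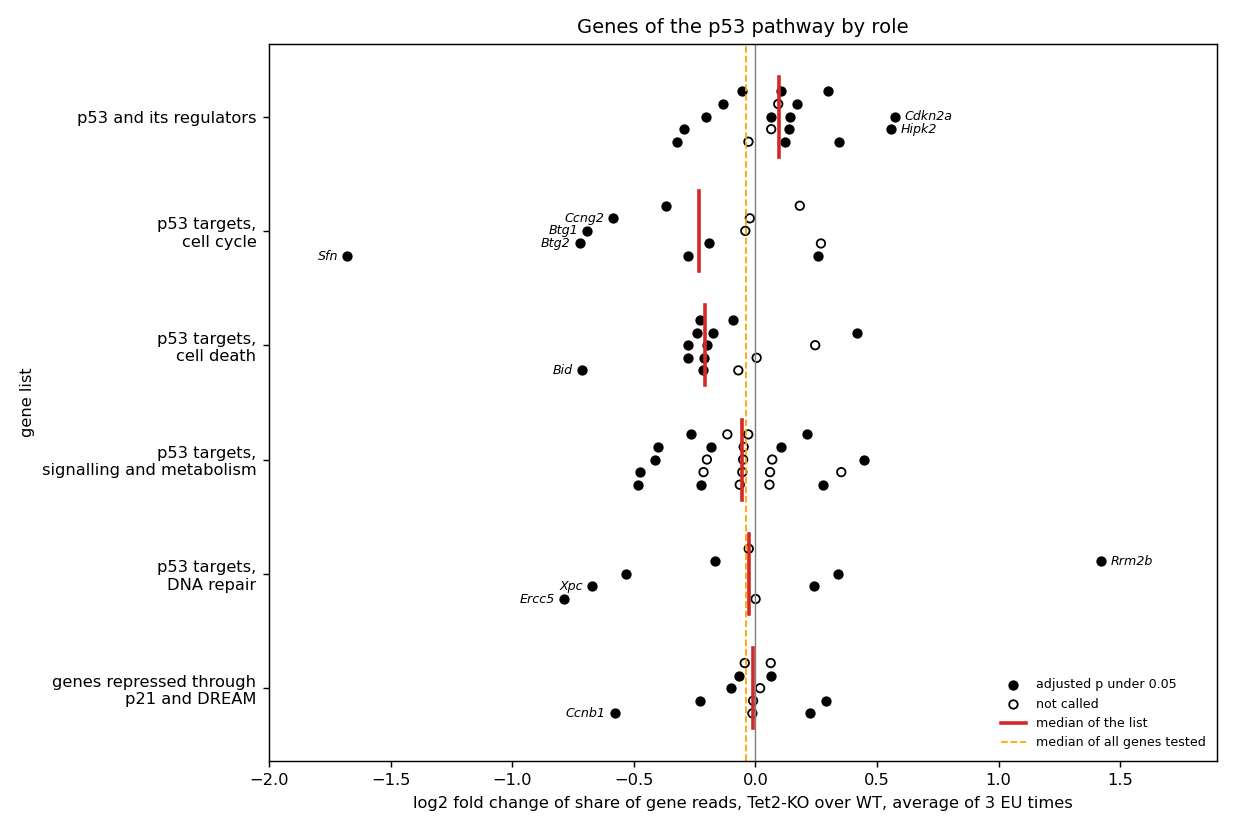
Log2 fold change of the share of gene reads, *Tet2*-KO over WT on the average of the 3 EU times, for the 88 tested genes of the p53 pathway, 1 point per gene in 6 lists by role (filled, adjusted p under 0.05), with the median of each list in red and that of all genes tested dashed. The medians of the cell cycle and cell death targets (-0.23 and -0.21) lie below that of all genes (-0.04) and the median of the regulators (0.10) above it.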

How the data were processed

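The authors trimmed reads with Trimmomatic 0.39, aligned them with HISAT2 2.2.1 to mm10 with GENCODE M19 and ERCC sequences, and counted them with HTSeq 0.12.4; the deposited values are these raw counts per gene, without normalization. The feature type, strand setting and overlap mode are not given in the sources used here. Identifiers were named by GENCODE M21 on the same build (54409 of 54446). edgeR 4.0.16 (R 4.3.3) quasi-likelihood fits used all 6 groups, with ERCC read totals or gene read totals as library sizes, on 19910 genes kept by filterByExpr with a minimum count of 10, and were tested on simulated data. Standard errors were taken from the F statistic (the size of the log2 fold change over its square root), and 95% intervals are 1.96 standard errors wide on each side. Alternatives were DESeq2 1.42.0, TMM, other filters, a replicate block, and leaving out each library. Counts limit precision for the least abundant genes. No genome was used, so motifs were searched in the RefSeq windows and not in the wider regions planned. The 10 genes are all named, with *Tet2* and the 6 highest and 6 lowest called genes of the lists. The genes and lists were chosen with earlier results of these data known.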

Additional observations from a re-analysis of the deposited data

Results flagged for a closer look

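For 6 of the 10 genes per ERCC read and for 3 in share of gene reads, the difference between genotypes itself differed between 10 and 40 min of EU, by the interaction contrast of edgeR's quasi-likelihood fit. All of these were lower at 40 min, as were 19.3% of all genes tested per ERCC read and 3.36% in share. Higher were 0.552% and 5.89% of all genes. Per ERCC read the contrast of 40 minus 10 min was -0.63 for *Ccng1*, -0.61 for *Trp53inp1*, -0.56 for *Pmaip1*, -0.53 for *Mdm2*, -0.49 for *Phlda3* and -0.36 for *Zmat3* on the log2 scale, beside a median of -0.29 over all genes. In share it was -0.29 for *Ccng1*, -0.27 for *Trp53inp1* and -0.18 for *Mdm2*, beside a median of 0.06 over all genes. Groups of 3 libraries were too small to look for single outlying libraries.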

How the results depend on the processing

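The genotype calls of the 10 genes on the average of the EU times kept their direction and their side of the threshold under every alternative, except *Ccng1* in share, as given above, and *Pmaip1* in share, whose uncalled difference of 0.00 ranged from -0.045 to 0.033 as single libraries were left out. Of the other named genes, the uncalled differences per ERCC read ranged from -0.016 to 0.055 for *Bid* and from -0.015 to 0.044 for *Btg2*, with both signs. At 20 min the number of genes lower in share was 4, 2 with TMM and 2 with DESeq2's own size factors, and 2 to 4 as single libraries were left out. The median level per kb was 22.8 with exon length and 8.15 with gene span. With a line through the origin, the slope ratio moved from 1.11 to 1.24 for *Trp53inp1* and from 1.40 to 1.55 for *Mdm2*. It also moved from 1.223 to 1.385 for *Ccng1* and from 1.33 to 1.47 for *Pmaip1*. Leaving out replicate 2 labelled *Tet2*-KO at 40 min moved the ratio of *Cdkn1a* from 1.21 to 1.34. Leaving out replicate 1 of that group moved the ratio of *Ccng1* to 1.13. Per ERCC read, the change of the difference with EU time lost its call for *Phlda3* (adjusted p = 0.0728) and *Zmat3* (adjusted p = 0.0570) when every gene with at least 1 read was tested by edgeR. Leaving out WT replicate 3 at 10 min, WT replicate 2 or 3 at 40 min, or, labelled *Tet2*-KO, replicate 3 at 10 min or replicate 2 at 40 min ended it for both genes; WT replicate 1 at 40 min did so for *Phlda3*, with replicate 1 at 10 min and replicate 3 at 40 min labelled *Tet2*-KO for *Zmat3*, and the number of genes called ranged from 4 to 8 against 6. *Trp53* and *Cdkn1a* gained this call with DESeq2 (adjusted p = 0.0442 and 0.0359), with stricter gene filters and without some single libraries, and *Bax* without replicate 2 labelled *Tet2*-KO at 10 min. The cause was not tested.

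Replicate numbers did not pair the samples: correlations of same-numbered libraries ran from -0.195 to 0.173, with a median of -0.00854. A replicate block moved that change for *Phlda3* to -0.49 (adjusted p = 0.0504 by edgeR) and changed no other call.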
